A study of Mus musculus with 6 samples.

Results

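The genes described here are a set of 10 named genes of the receptors and ligands with which brain phagocytes recognize dying cells and debris: Trem2 and its adaptor Tyrobp, the TAM receptors Tyro3, Axl and Mertk with their ligands Gas6 and Pros1, and Itgax, Clec7a and Lgals3, which are widely used as markers of activated microglia. The genes were taken by symbol from the gene list of the count matrices, which holds 32285 genes, and 9 of the 10 had a row there; Clec7a was not analysed here. They were measured by single-nucleus RNA sequencing in 6 libraries of nuclei from brains of C57BL/6 S-56 mice, sorted to leave out nuclei that stain for the neuronal protein NeuN. The 3 LPA-injected libraries came from neonates given 5 µl of lysophosphatidic acid, a bioactive lipid of blood, into a lateral ventricle at postnatal day 7, and the 3 vehicle-injected libraries from neonates that received the same volume of vehicle, 0.01% bovine serum albumin, so that the controls carried the injection too. All brains were collected at postnatal day 15, without olfactory bulbs and cerebellum. The LPA injection serves as a model of hydrocephalus after haemorrhage, and the libraries of a group are numbered as replicates of a treated brain. The labels do not say whether a library held a single brain, while the study's captions describe the points of these samples as individual mice. The p-values measure the spread between these libraries.

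TREM2 is a surface receptor for lipids and lipoproteins that signals through DAP12, the protein of Tyrobp, and in the brain both are known as genes of microglia and macrophages. Tyro3, Axl and Mertk are receptor tyrosine kinases that bind phosphatidylserine on dying cells only through a bridge. The bridge is GAS6 or, for Tyro3 and Mertk, protein S, the product of Pros1. Mertk is also known for the engulfment of synapses by astrocytes. Itgax codes for the integrin CD11c and Lgals3 for galectin-3, and both rise in microglia around plaques, dying neurons and myelin debris.

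The genes lie on 6 chromosomes of the GRCm38 build and span from 3.826 kb (Tyrobp) to 103.939 kb (Mertk). Itgax lies at chr7:128129547-128150657 on the plus strand, Gas6 at chr8:13465374-13494490 on the minus strand, Lgals3 at chr14:47367751-47386160 on the plus strand, Trem2 at chr17:48346401-48354147 on the plus strand and Mertk at chr2:128698956-128802894 on the plus strand. Mertk overlaps Gm23172 on its own strand and Gm14011 on the other strand, and Gas6 overlaps Tmem255b on the other strand. Because whole pre-mRNA was counted, introns included, a long gene can collect more reads, and levels are compared between genes only per kb of gene or of exon. Promoter windows were read for 8 of the 9 genes from RefSeq, build GRCm38.p6, as the 250 bases before the start that RefSeq gives. For Lgals3 and Tyro3 that start lies downstream of the first base of the gene's full span, so that their windows lie inside it. The 3 printed here belong to the genes that were higher in immune cells after LPA injection, so that the stretches next to their starts can be compared, and each reads 5′ to 3′ on the strand of the gene. Capitals mark the AP-1 motif TGAGTCA.
Itgax, chr7:128129300-128129549, plus strand: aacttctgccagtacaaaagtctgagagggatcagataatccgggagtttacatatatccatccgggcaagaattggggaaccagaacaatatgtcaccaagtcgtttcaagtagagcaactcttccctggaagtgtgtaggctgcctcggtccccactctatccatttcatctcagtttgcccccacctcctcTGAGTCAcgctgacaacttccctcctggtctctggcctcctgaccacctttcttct
Gas6, chr8:13494536-13494785, minus strand: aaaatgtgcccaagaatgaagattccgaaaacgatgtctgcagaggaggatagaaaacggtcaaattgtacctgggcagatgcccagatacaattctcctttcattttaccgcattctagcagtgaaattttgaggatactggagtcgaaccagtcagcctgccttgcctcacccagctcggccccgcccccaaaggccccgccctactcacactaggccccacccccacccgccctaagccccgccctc
Lgals3, chr14:47373610-47373859, plus strand: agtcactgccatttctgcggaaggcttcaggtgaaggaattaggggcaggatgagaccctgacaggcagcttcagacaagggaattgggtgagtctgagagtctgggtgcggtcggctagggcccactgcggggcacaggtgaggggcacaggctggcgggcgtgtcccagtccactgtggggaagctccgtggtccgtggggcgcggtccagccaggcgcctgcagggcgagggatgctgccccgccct
The letters TGAGTCA or TGACTCA stood in the Itgax window, 56 bases before the start, and in none of the other 7 windows. Of all 32851 promoters in the table, 4.46% held them in the same 250 bases. Letters for PU.1, a myeloid factor (ACTTCCTC or GAGGAAGT), stood in none of the 8 windows and in 2.44% of all promoters, and those of an E-box bound by MiT/TFE factors (CACGTG, which reads alike on both strands, or CACATG, which on the other strand reads as CATGTG) stood in none of the 8 and in 17.6% of all. None of the 3 motifs holds another of them whole, and such a match is a description of the window, not a binding site.

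The matrices held 8639 to 12894 nuclei and 48852970 to 65688644 UMIs (unique molecular identifiers, each counted as 1 RNA molecule) per library, and 57443 nuclei passed the filters. Clusters were named from fixed markers that hold none of the 10 genes, which named 50255 nuclei: 2112 immune cells, 10339 astrocytes, 3146 oligodendrocyte precursors, 10044 oligodendrocytes, 5145 meningeal cells, 1267 pericytes, 1781 endothelial cells, 1226 ependymal cells, 947 cells of the choroid plexus epithelium and, in spite of the sort, 14248 neurons, which carried all 18 neuronal markers. All 20 immune markers were detected in the immune nuclei of every library, at a summed level of 13294 to 16809 UMIs per 1000000. Pairs of libraries shared 16 to 39 barcodes among the 7579 or more filtered nuclei in each. By their RNA of Xist and of Y-chromosome genes, the LPA libraries were male, female and female, in the order of their numbers. The vehicle libraries were male, female and male, so that without the second vehicle library that group was all male. Immune nuclei were shallow and unequally so, with 1962 to 2095 UMIs per nucleus in the LPA libraries and 1413 to 1656 in the vehicle libraries. Throughout, a level is the UMIs of a gene per 1000000 UMIs of the same cell type and library (CPM), given as mean ± SD over libraries.

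Over the 6 libraries together, Trem2, Tyrobp, Mertk, Gas6, Pros1 and Itgax all had their highest level in immune cells. Axl had it in pericytes, Tyro3 in oligodendrocytes and Lgals3 in ependymal cells. Trem2 reached 192 ± 32.5 CPM in immune cells (n = 6), against 6.68 ± 3.50 CPM in endothelial cells, the next type, and the ranges over libraries did not overlap. Tyrobp followed the same order, with 100.4 ± 12.6 CPM in immune cells and 5.04 ± 1.78 CPM in endothelial cells. Neurons, which should lack both genes, held 1.43 ± 0.772 CPM of Trem2 and 0.860 ± 0.266 CPM of Tyrobp, a background that astrocytes (1.63 ± 0.882 and 1.12 ± 0.544 CPM) and oligodendrocytes (1.30 ± 0.751 and 0.849 ± 0.283 CPM) did not exceed beyond the spread between libraries. Of all UMIs of Trem2, 29.8% lay in nuclei that had no name, as did 29.7% of those of Tyrobp, while unnamed nuclei made up 12.5% of all nuclei kept.

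The 3 TAM receptors were spread over different cells. Mertk stood at 1708 ± 142 CPM in immune cells and 1223 ± 219 CPM in astrocytes, whose libraries ranged from 1529 to 1850 and from 976 to 1476 CPM, and fell away to 245 ± 43.1 CPM in endothelial cells. By number, astrocytes held 53.3% of all Mertk UMIs and immune cells 9.15%. Axl was at 116 ± 25.3 CPM in pericytes, 52.3 ± 8.59 CPM in astrocytes, 28.7 ± 4.80 CPM in meningeal cells and 24.3 ± 12.3 CPM in immune cells. The last of these were not separated from meningeal cells, while pericytes lay above astrocytes in every library. Tyro3 was at 130 ± 11.4 CPM in oligodendrocytes, which held 49.4% of its UMIs, and the next types, choroid plexus epithelium (38.0 ± 4.94 CPM) and neurons (36.4 ± 3.66 CPM), overlapped each other.

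The ligands overlapped the receptors in immune cells and had further sources outside them. Gas6 stood at 267 ± 111 CPM in immune cells, 241 ± 38.6 CPM in choroid plexus epithelium and 240 ± 59.5 CPM in ependymal cells, 3 types whose ranges overlapped. In the vehicle libraries alone it was lowest of the 3 in immune cells (169 ± 19.3 CPM). Choroid plexus epithelium had 224 ± 35.9 CPM there and ependymal cells 282 ± 58.9 CPM. Pros1 was at 257 ± 61.1 CPM in immune cells, above pericytes (75.4 ± 4.11 CPM) and endothelial cells (75.4 ± 7.63 CPM) in every library. Itgax was at 26.3 ± 24.3 CPM in immune cells and at most 1.04 ± 1.39 CPM elsewhere. Its level in immune cells of the vehicle libraries was 4.35 ± 1.01 CPM. Lgals3 was at 23.4 ± 11.1 CPM in ependymal cells, 17.8 ± 13.7 CPM in immune cells and 11.9 ± 4.61 CPM in choroid plexus epithelium, and the ranges of these 3 types overlapped. Per kb of gene, Tyrobp (26.2 CPM per kb), Trem2 (24.8), Mertk (16.4) and Gas6 (9.16) were the most abundant of the 9 in immune cells, and Axl (0.774 CPM per kb) the least. Per kb of exon the order was another, with Mertk (394 CPM per kb), Tyrobp (151), Gas6 (105) and Pros1 (63.0) first. Trem2 then had 38.8 CPM per kb, and Tyro3 (2.77) had the least.

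**Figure D1:**
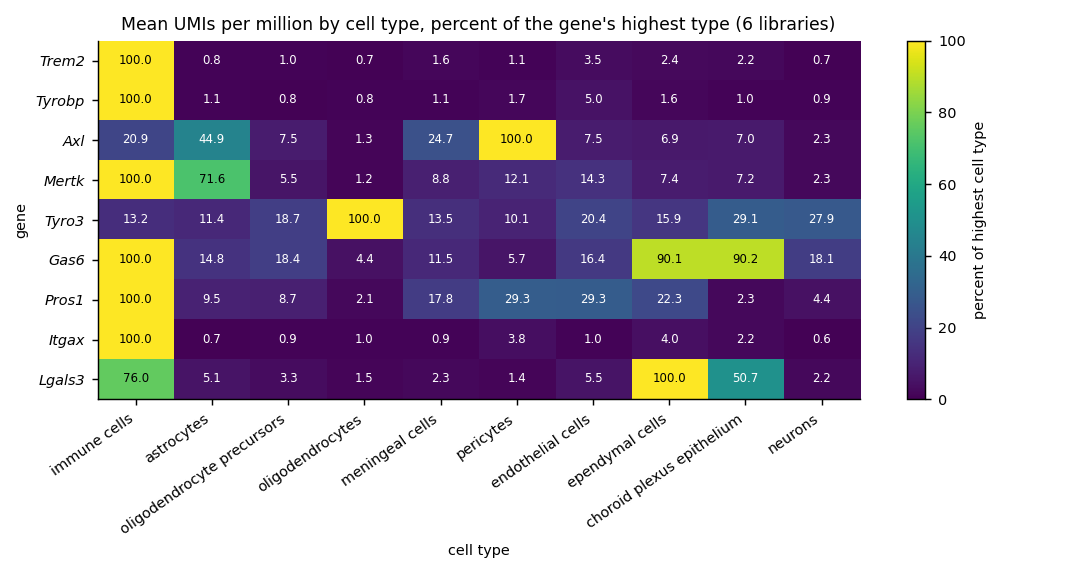
Mean level of each gene (rows) in each of the 10 cell types (columns), as a percentage of the gene's highest cell type, over 6 libraries. Trem2, Tyrobp and Itgax stay at or below 5.02% outside immune cells, whereas Mertk reaches 71.6% of its immune level in astrocytes and Gas6 about 90% in ependymal cells (90.1%) and choroid plexus epithelium (90.2%). In the vehicle libraries alone, Gas6 was higher in ependymal cells and choroid plexus epithelium than in immune cells.

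In immune cells, the integrin Itgax, the lectin Lgals3 and the ligand Gas6 were higher in LPA-injected mice, by 11.8-fold, 4.85-fold and 2.23-fold, while Trem2, Tyrobp, Mertk and Tyro3 did not pass the test. The threshold for a call was 0.05 for the adjusted p, with a change of 0.25 or more in either direction on the log2 scale, in edgeR's quasi-likelihood test on UMIs summed per library, with Benjamini-Hochberg adjustment over all genes tested. All 9 genes could be tested and 3 were called, all 3 higher, where 6.01% of the 9628 genes tested were called, 3.7% higher and 2.32% lower. The LPA and vehicle libraries did not overlap for 5 of the 9 (Itgax, Lgals3, Gas6, Mertk and Tyro3), against 21.6% of all genes tested. The mix of immune cells differed as well: macrophage markers (9 of 9 with a UMI) summed to 2054 to 2919 CPM of immune cells in LPA and 4337 to 5340 CPM in vehicle libraries, and their part in these results was not tested.

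Itgax gave 37, 59 and 46 UMIs in the LPA libraries and 1, 2 and 1 in the vehicle libraries, or 42.1, 51.2 and 51.6 CPM against 4.35, 3.34 and 5.36 CPM. Every LPA library was thus far above every vehicle library, and the log2 fold change was 3.56 ± 0.45 (SE; adjusted p = 2.6e-06). Since only 4 UMIs stood in the vehicle libraries, the size of the change is loosely set: the ratio of the pooled levels was 12.3, with an exact 95% interval of 4.71 to 45.9 that covers counting error only. Itgax kept its call in each of the 13 alternative analyses that could test it. Immune nuclei without activated microglia and a sub-cluster led by Cd83 and Ctsl held too few of its UMIs for the test.

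Lgals3 gave 18, 35 and 33 UMIs (20.5, 30.4 and 37.0 CPM) in the LPA libraries and 2, 3 and 1 UMIs (8.69, 5.01 and 5.36 CPM) in the vehicle libraries. The groups did not overlap, and the log2 fold change was 2.28 ± 0.49 (SE; adjusted p = 0.0030). Its pooled ratio was 4.98, with an exact 95% interval of 2.20 to 13.9. The call was lost when the second vehicle library was left out (log2 fold change 2.03, adjusted p = 0.12) and with DESeq2 (2.29, adjusted p = 0.055).

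Gas6 was at 324, 361 and 408 CPM in the LPA libraries and 187, 149 and 172 CPM in the vehicle libraries, from 1065 and 164 UMIs. These levels did not overlap, and the log2 fold change of 1.16 ± 0.14 (SE; adjusted p = 1.3e-06) kept its call in 13 of 14 alternatives. The exception was a sum of immune nuclei without activated microglia and a sub-cluster led by Cd83 and Ctsl, an alternative chosen after the data were seen, in which it was 0.33 (adjusted p = 0.64). Pros1, the other ligand, was at 269, 302 and 331 CPM against 191, 274 and 177 CPM, where the second vehicle library lay inside the LPA range. Its log2 fold change was 0.40 ± 0.14 (SE; adjusted p = 0.11), and without that library it was 0.73 (adjusted p = 0.017).

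Of the TAM receptors, Axl came nearest to a call in immune cells. It gave 20, 40 and 35 UMIs (22.7, 34.7 and 39.3 CPM) against 4, 3 and 5 UMIs (17.4, 5.01 and 26.8 CPM), so that the third vehicle library lay above the first LPA library. The log2 fold change was 1.42 ± 0.44 (SE; adjusted p = 0.051), and the pooled ratio 2.75 had an exact 95% interval of 1.504 to 5.51. It rested on the second vehicle library, the lowest: without it the log2 fold change was 0.61 (adjusted p = 0.68), whereas it was called without the first LPA library (1.61, adjusted p = 0.031) and without the third vehicle library (1.93, adjusted p = 0.017). Mertk was at 1850, 1745 and 1849 CPM against 1730, 1529 and 1544 CPM, a small separation between groups (log2 fold change 0.19 ± 0.10 SE, adjusted p = 0.37). Tyro3 rested on 43 and 19 UMIs (log2 fold change -0.35 ± 0.41 SE, adjusted p = 0.74).

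Trem2 and Tyrobp, the receptor and its adaptor, showed no detectable difference per immune RNA. Trem2 was at 186, 198 and 173 CPM in the LPA libraries and 209, 240 and 145 CPM in the vehicle libraries, a log2 fold change of -0.18 ± 0.14 (SE; adjusted p = 0.60) that turned to 0.079 without the second vehicle library. Tyrobp was at 108, 108 and 110 CPM against 82.6, 108 and 85.8 CPM (log2 fold change 0.16 ± 0.18 SE, adjusted p = 0.74).

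Over all nuclei together, 3 of 9 genes were called, Itgax (log2 fold change 4.80), Lgals3 (1.64) and Pros1 (0.51), where 5.62% of 20207 genes were called. Gas6 was not among them (0.29, adjusted p = 0.13). Trem2 was at 8.66 ± 1.75 CPM of all nuclei in the LPA libraries and 3.97 ± 2.74 CPM in the vehicle libraries, which is a log2 fold change of 1.10 ± 0.39 (SE; adjusted p = 0.15), and Tyrobp had 1.10 ± 0.30 (SE; adjusted p = 0.067). Without the second vehicle library, both were called (1.88, adjusted p = 0.0019, and 1.67, adjusted p = 0.0013). With the replicate number as a block both were called too (1.25, adjusted p = 0.033, and 1.19, adjusted p = 0.038). Tyrobp was also called by DESeq2 (adjusted p = 0.0022), with no filter on low counts (0.041), with no mitochondrial limit (0.030) and without doublets (0.041). In such a sum over nuclei, more cells of a type and more RNA per cell cannot be told apart. Beside it stand the immune nuclei themselves, which were 5.20%, 6.02% and 5.22% of the nuclei in the LPA libraries and 1.83%, 3.29% and 1.12% in the vehicle libraries.

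**Figure D2:**
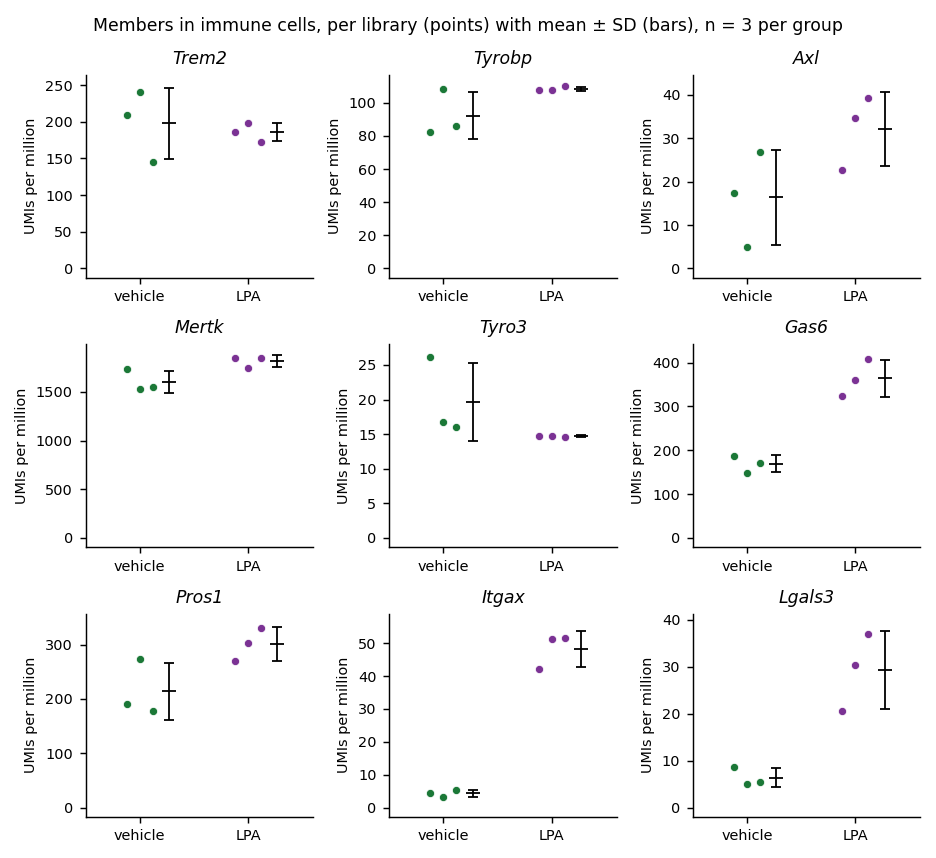
Level of each gene in immune cells (UMIs per 1000000 UMIs of immune cells, y axis) in the 3 vehicle and 3 LPA libraries, 1 point per library, with mean ± SD beside them. Itgax, Lgals3 and Gas6 show LPA libraries well above all vehicle libraries, and for Trem2 the 2 groups lie over each other.

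Within immune cells, the genes separated by state. Sub-clustering left 8 sub-clusters, from which 1211 homeostatic microglia (691 from LPA libraries, 520 from vehicle libraries), 477 activated microglia led by Gpnmb, Hpse, Spp1 and Atp6v0d2, and 192 macrophages led by F13a1 and Cd163 were named. Activated microglia were 114, 178 and 183 nuclei in the LPA libraries and 0, 1 and 1 nuclei in the vehicle libraries, so that state and treatment cannot be told apart and the comparison of states is given without a test. A further 174 nuclei, led by Gm48633, Rcbtb2, Cd83 and Ctsl and found almost wholly in LPA libraries (169 of 174), had too few markers of 1 state to be named.

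Most UMIs of Itgax and Lgals3 in immune cells of the LPA libraries lay in activated microglia, which held 127 of 142 immune UMIs of Itgax (89.4%) and 76 of 86 of Lgals3 (88.4%), beside 36.4% of all immune UMIs and 32.6% of immune nuclei. Itgax stood at 124, 140 and 95.4 CPM there, against 4.93, 0 and 23.0 CPM in homeostatic microglia of the same libraries, and Lgals3 at 45.1, 77.4 and 82.8 CPM against 4.93, 0 and 0 CPM. Of the 9 UMIs of Itgax in homeostatic microglia, 7 came from 13 dividing nuclei of a sub-cluster led by Top2a, a pooled level of 248 CPM. Homeostatic microglia of the vehicle libraries held no UMI of either gene among 756291, which allows a level of up to 3.97 CPM. Outside activated microglia, 12 UMIs of Lgals3 lay in the 58 nuclei led by Cd74 and H2-Eb1, genes of antigen presentation, 7 from LPA and 5 from vehicle libraries. Few as they are, these UMIs make pooled levels of 98.2 CPM in LPA and 99.0 CPM in vehicle libraries, not below the 71.3 CPM of activated microglia. Itgax in the same nuclei was at a pooled 14.0 CPM in LPA and 59.4 CPM in vehicle libraries, from 1 and 3 UMIs.

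Gas6 and Axl were also higher in activated than in homeostatic microglia of every LPA library, and apart from Itgax and Lgals3 the other genes differed less. Gas6 was at 549, 579 and 600 CPM in activated and 143, 180 and 210 CPM in homeostatic microglia, a ratio of 2.85 to 3.84. The sub-cluster led by Cd83 and Ctsl lay between them, at 424, 386 and 341 CPM. Axl was at 52.6, 47.4 and 62.7 CPM in activated and 9.85, 15.5 and 13.2 CPM in homeostatic microglia, a ratio of 3.06 to 5.34, and the sub-cluster led by Cd83 and Ctsl held 4 UMIs of it. Tyrobp was 1.32 to 1.82 times and Pros1 1.33 to 1.45 times as high in activated as in homeostatic microglia. Trem2, at 240, 195 and 178 CPM in activated microglia, had ratios of 0.957 to 1.37, and Mertk had ratios of 0.975 to 1.06. Tyro3 was the one gene that was lower in activated microglia of every LPA library, with ratios of 0.436 to 0.644 that rest on 11 and 24 UMIs. The Cd83 and Ctsl sub-cluster had the highest mean levels of Trem2 (266 ± 26.3 CPM) and Mertk (2328 ± 130 CPM) among the 4 states shown for the LPA libraries.

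**Figure D3:**
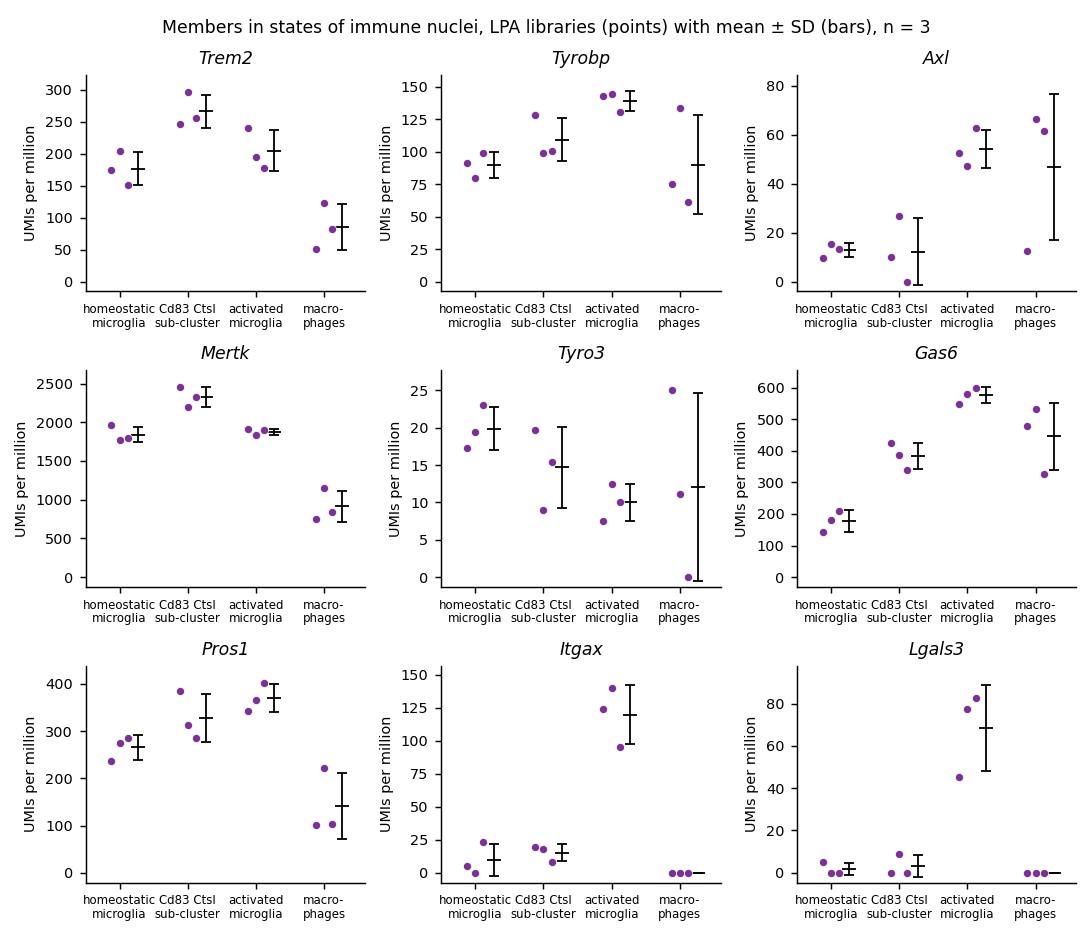
Level of each gene (UMIs per 1000000 UMIs of the state, y axis) in 4 states of immune nuclei in the 3 LPA libraries, 1 point per library, with mean ± SD beside them. Of the 4 states shown, Itgax and Lgals3 are high in activated microglia alone, Gas6 is high in activated microglia and macrophages, and Mertk is lowest in macrophages. Axl is high in activated microglia, and in macrophages it rests on 1, 6 and 3 UMIs (12.6, 66.7 and 61.4 CPM).

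In homeostatic microglia compared between treatments, no gene of the set was called, but Trem2 and Gas6 came close in opposite directions. Of the 9 genes, 5 had enough UMIs for the test and 0 were called (2 at an unadjusted p under 0.05, and 0 with DESeq2), where 0.343% of 6702 genes were called, 0.0746% higher and 0.269% lower. Of those 6702 genes, 483 had an unadjusted p under 0.05. Trem2 was at 175, 204 and 151 CPM in the LPA libraries and 277, 291 and 217 CPM in the vehicle libraries. The groups did not overlap, and the log2 fold change was -0.62 ± 0.16 (SE; adjusted p = 0.058). It was called without the second LPA library (-0.74, adjusted p = 0.046) and without the third vehicle library (-0.69, adjusted p = 0.044). In all it was called in 3 of 14 alternatives, with log2 fold changes of -0.74 to -0.44 and an adjusted p of up to 0.72. In the sub-cluster led by Cdh23, Siglech and Cx3cr1 the groups did not overlap, at 165, 175 and 146 CPM against 381, 323 and 261 CPM. In the sub-cluster led by Selplg and Tmem119 the libraries overlapped, at 193, 225 and 120 CPM against 221, 246 and 74.2 CPM. The small sub-clusters led by Usp18 and by Top2a had pooled levels of 203 against 849 CPM and 177 against 418 CPM, from 17 and 8 UMIs and from 5 and 3 UMIs. Their vehicle UMIs of Trem2 all came from a single library, the second for Usp18 and the third for Top2a. Whether the sub-clusters differed from each other was not tested.

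Gas6 in homeostatic microglia was at 143, 180 and 210 CPM in the LPA libraries and 84.3, 104 and 108 CPM in the vehicle libraries, from 215 and 76 UMIs. These levels did not overlap, with a log2 fold change of 0.79 ± 0.21 (SE; adjusted p = 0.065). It was called in 6 of 14 alternatives, with an adjusted p of up to 0.55 in the others. Without the first LPA library it was called (0.92, adjusted p = 0.018). With the Cd83 and Ctsl sub-cluster counted as homeostatic, an alternative chosen after the data were seen, it was 1.14 (adjusted p = 2.3e-05). That sub-cluster came almost wholly from LPA libraries (169 of 174 nuclei). Its nuclei also took the name of homeostatic microglia with no mitochondrial limit, without doublets and at Leiden resolution 2. A call for Gas6 in those alternatives is therefore not independent of that sub-cluster. Tyrobp (-0.15), Mertk (-0.11) and Pros1 (-0.10) had log2 fold changes near 0. Macrophage markers also stood higher in these homeostatic nuclei, at a summed 444 to 527 CPM in LPA against 225 to 334 CPM in vehicle libraries (7 of 9 markers with a UMI, Lyve1 and Pf4 at 0), and the markers of activated microglia at 966 to 1299 against 921 to 1068 CPM (11 of 11). Genes of the interferon response summed to 17.4 to 29.6 against 6.02 to 10.6 CPM (4 of 4), and those of dividing cells to 12.3 to 31.0 against 0 to 8.35 CPM (2 of 2). The part of these 4 groups in the result was not tested.

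Macrophages numbered 29, 37 and 23 nuclei in the LPA and 19, 60 and 24 in the vehicle libraries, few enough that only Mertk and Gas6 could be tested. Neither was called (0 at an unadjusted p under 0.05 and 0 with DESeq2), where 0% of 1518 genes were called by edgeR, 103 had an unadjusted p under 0.05 and DESeq2 called 1. Gas6 stood well above its level in homeostatic microglia, at 477, 533 and 328 CPM against 595, 376 and 456 CPM (log2 fold change -0.090 ± 0.27 SE). Mertk was at 754, 1145 and 840 CPM against 636, 837 and 735 CPM (log2 fold change 0.23 ± 0.23 SE). Trem2 rested on 19 UMIs in LPA and 10 in vehicle macrophages, and Itgax and Lgals3 on 0 and 1 each, where 0 UMIs allow up to 13.7 CPM. The LPA effect on Trem2 was lower in homeostatic microglia than in macrophages by 1.36 ± 0.60 on the log2 scale, which did not pass (adjusted p = 0.72, edgeR's test of the interaction). None of the 5 genes in that test did, where 0.2% of 3494 genes were called, 2 others having an unadjusted p under 0.05 (Gas6, 0.039, and Pros1, 0.040).

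In astrocytes the pattern was another: the receptor Mertk was lower and the ligand Pros1 higher in LPA-injected mice. Of the 6 genes tested, 2 were called, where 8.07% of 14604 genes were called, 4.92% higher and 3.15% lower. Mertk was at 1097, 1014 and 976 CPM in the LPA libraries and 1394, 1382 and 1476 CPM in the vehicle libraries, from 19600 and 20544 UMIs. All LPA libraries lay below all vehicle libraries, a log2 fold change of -0.45 ± 0.062 (SE; adjusted p = 0.00014) or a level 0.734 times that of the vehicle libraries. Pros1 was at 25.9, 28.3 and 28.9 CPM against 24.1, 21.9 and 17.6 CPM, groups that did not overlap but lay close together (log2 fold change 0.41 ± 0.12 SE, adjusted p = 0.044). The call for Pros1 held in 6 of 16 alternatives. It was lost without the first, the second or the third LPA library (adjusted p = 0.054, 0.12 and 0.14) and without the second or the third vehicle library (adjusted p = 0.082 and 0.21), and with DESeq2 (adjusted p = 0.14).

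Astrocytes formed 3 clusters, and the 2 calls lay in different ones. The cluster led by Slc1a2 and Grin2c held most Mertk, at 1473 ± 130 CPM in LPA and 1804 ± 77.6 CPM in vehicle libraries (log2 fold change -0.26, adjusted p = 0.042). The cluster led by Slc6a11 had 681 ± 61.4 against 884 ± 28.3 CPM (-0.35, adjusted p = 0.045), and the cluster led by Gfap, Thbs4 and C4b, genes of fibrous and reactive astrocytes, had 471 ± 35.2 against 600 ± 37.3 CPM (-0.26, adjusted p = 0.14). Mean Mertk was thus lower in each cluster, without a call in the Gfap cluster, and by less than in all astrocytes together. The Gfap cluster, in which Mertk was lowest, was 24.6% to 26.7% of astrocyte nuclei in LPA and 11.6% to 12.9% in vehicle libraries. The part of these shares in the result for all astrocytes was not tested. Pros1 was higher in the Gfap cluster, at 48.0 ± 3.36 against 27.6 ± 7.95 CPM (log2 fold change 0.95, adjusted p = 0.013). In the clusters led by Slc1a2 and by Slc6a11 it was not called (0.097 and 0.034, adjusted p = 0.86 and 0.97). The split by cluster was chosen after the data were seen, and whether the clusters differed from each other was not tested.

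**Figure D4:**
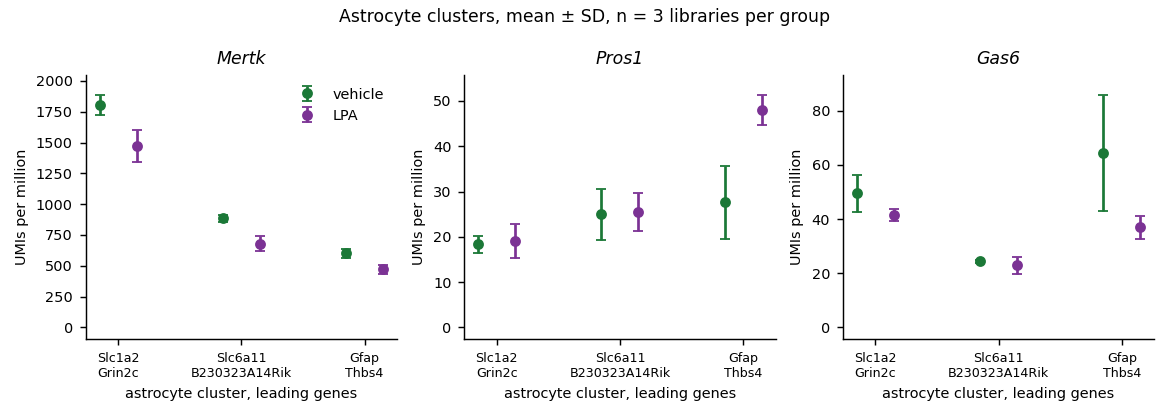
Mean ± SD over 3 libraries per group of Mertk, Pros1 and Gas6 (UMIs per 1000000 UMIs of the cluster, y axis) in 3 astrocyte clusters named by their leading genes. Mean Mertk is lower in LPA libraries in each cluster, without a call in the Gfap cluster, and Pros1 is higher in the Gfap cluster (48.0 against 27.6 CPM).

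The remaining genes tested in astrocytes were not called in the main analysis. Without the first LPA library and without the second vehicle library, 2 genes were called although Pros1 was not. The other call beside Mertk there was for a gene that the main analysis could not test. Axl was at 49.5, 50.5 and 43.2 CPM against 67.6, 47.0 and 55.6 CPM (log2 fold change -0.21 ± 0.11 SE, adjusted p = 0.28) and Gas6 at 36.4, 34.2 and 37.1 CPM against 47.3, 37.2 and 45.2 CPM (-0.24 ± 0.10 SE, adjusted p = 0.18). Lgals3 was too rare for the test in the main analysis, with 37 UMIs in LPA and 6 in vehicle libraries (1.98 ± 0.634 against 0.422 ± 0.193 CPM). Its pooled ratio was 4.70, with an exact 95% interval of 1.97 to 13.6. Itgax held 7 UMIs in LPA astrocytes and 0 in vehicle astrocytes, where 0 UMIs allow up to 0.207 CPM, and LPA neurons held 12 UMIs at a like level (0.372 ± 0.101 CPM in astrocytes, 0.314 ± 0.0576 CPM in neurons). Immune markers, all 20 of which had a UMI in astrocytes, summed to 113 to 146 CPM in LPA and 83.7 to 140 CPM in vehicle astrocytes. Their part in the levels of the immune genes there was not tested.

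Tested against each other, the LPA effects in immune cells and astrocytes differed for 3 of the 9 genes, where 3.48% of 14314 genes differed. In edgeR's test of the interaction, which keeps each library as a block, the effect on Gas6 was higher in immune cells by 1.42 ± 0.17 on the log2 scale (SE; adjusted p = 2.4e-14), that on Axl by 1.64 ± 0.41 (adjusted p = 0.0040) and that on Mertk by 0.71 ± 0.13 (adjusted p = 5.0e-06). The result for Axl was lost without the second vehicle library (1.00, adjusted p = 0.43) and without the third LPA library (1.41, adjusted p = 0.065). For Pros1 the difference was 0.074 ± 0.18 (SE; adjusted p = 0.93). Between astrocytes and oligodendrocytes none of 7 genes was called, where 4.62% of 15697 genes were; Mertk came nearest (-0.46 ± 0.15 SE, adjusted p = 0.082) and was called without the second vehicle library (-0.72, adjusted p = 0.0031) and without the third LPA library (-0.60, adjusted p = 0.019).

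In ependymal cells, the ciliated lining of the ventricles, both ligands were called, in opposite directions. Of 5 genes tested, 2 were called, where 3.91% of 10837 genes were. Gas6 was at 206, 198 and 191 CPM in LPA libraries and 350, 252 and 245 CPM in vehicle libraries, which did not overlap (log2 fold change -0.54 ± 0.13 SE, adjusted p = 0.026). Pros1 was at 90.0, 64.9 and 60.6 CPM against 41.6, 47.7 and 38.9 CPM, again without overlap (0.76 ± 0.21 SE, adjusted p = 0.046). Neither ligand was called by DESeq2 (adjusted p = 0.058 and 0.18). The call for Gas6 was lost without the second or the third LPA library (adjusted p = 0.074 and 0.14) or the first vehicle library (-0.34, adjusted p = 0.24), and that for Pros1 without the first or the third LPA library (0.55, adjusted p = 0.20, and 0.87, adjusted p = 0.059) or the first, the second or the third vehicle library (adjusted p = 0.18, 0.062 and 0.13). Lgals3 was at 24.0, 23.4 and 44.4 CPM against 19.7, 13.6 and 15.6 CPM, from 101 and 31 UMIs (0.87 ± 0.33 SE, adjusted p = 0.16). Immune markers summed to 519 to 706 CPM in LPA and 338 to 515 CPM in vehicle ependymal cells (20 of 20 with a UMI). Their part in these results was not tested.

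In 6 of the 7 remaining cell types none of the genes tested was called by edgeR or DESeq2. These were 5 genes in oligodendrocyte precursors (1 at an unadjusted p under 0.05, where 0.11% of all genes were called), 6 in oligodendrocytes (1, and 5.25%), 6 in meningeal cells (0, and 0.529%), 3 in pericytes (0, and 0.309%), 4 in choroid plexus epithelium (0, and 0.0397%) and 7 in neurons (0, and 0.0593%). Over all genes, 881 of 11780 in oligodendrocyte precursors and 2618 of 14466 in oligodendrocytes had an unadjusted p under 0.05. In endothelial cells 4 genes were tested and 0 called (0 at an unadjusted p under 0.05), where 0% of 11437 genes were called by edgeR, 698 had an unadjusted p under 0.05 and DESeq2 called 6. Tyro3 in oligodendrocytes, the cells with the most of it, was at 121, 124 and 122 CPM in LPA libraries and 151, 134 and 132 CPM in vehicle libraries, a small separation without overlap (log2 fold change -0.18 ± 0.060 SE, adjusted p = 0.093). Mertk in oligodendrocyte precursors was at 85.3, 83.1 and 79.0 CPM against 113, 99.2 and 107 CPM, also without overlap (-0.33 ± 0.10 SE, adjusted p = 0.36). Axl in pericytes, its highest type, was at 113, 118 and 124 CPM against 160, 92.3 and 91.1 CPM (0.11 ± 0.19 SE, adjusted p = 0.93), and Gas6 in choroid plexus epithelium at 211, 286 and 273 CPM against 264, 216 and 193 CPM (0.21 ± 0.14 SE, adjusted p = 0.89).

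**Figure D5:**
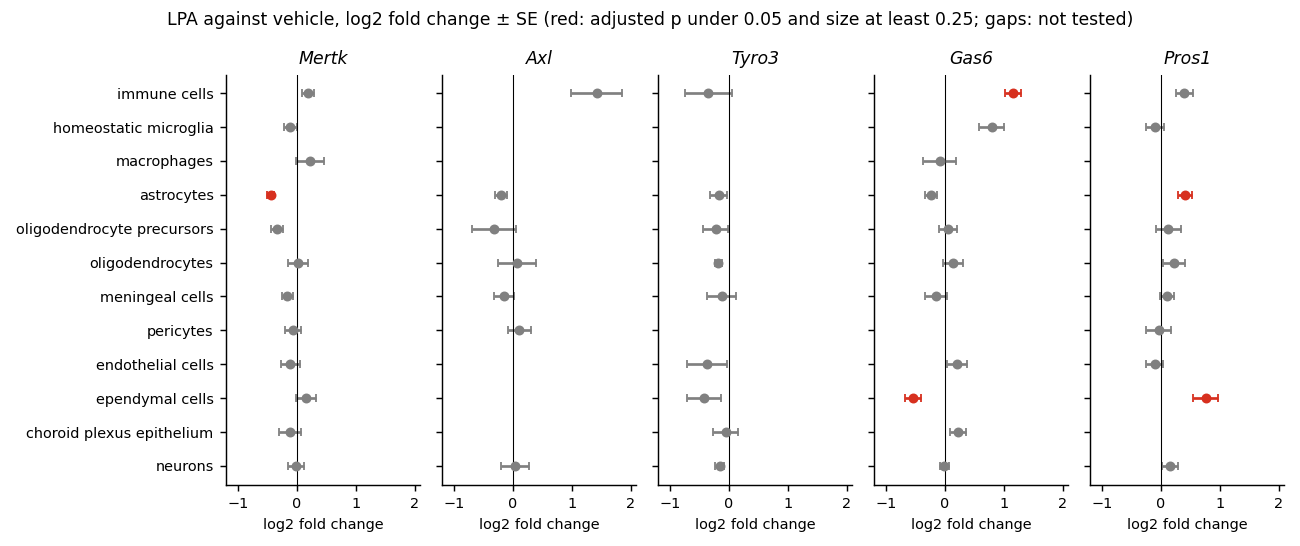
Log2 fold change of LPA against vehicle (x axis, ± SE) for the 3 TAM receptors and their 2 ligands in each cell type (y axis), with called values in red and untested ones left out. Gas6 is higher in immune cells (1.16) and lower in ependymal cells (-0.54), Mertk is lower in astrocytes (-0.45), and Pros1 is higher in astrocytes (0.41) and ependymal cells (0.76).

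The wider pathways were read from 2 lists of genes. Of 31 genes that signal below TREM2 and DAP12 or control them, 27 were tested in immune cells, where 3.7% of all genes were higher and 2.32% lower: 0 were higher and 1 was lower, Vav3, a signalling protein below immune receptors (136, 107 and 109 CPM against 300, 194 and 354 CPM; log2 fold change -1.15 ± 0.17 SE, adjusted p = 3.3e-05). The list's median log2 fold change was -0.021, the same as that of all genes (-0.021), and a further 4 of the 27 had an unadjusted p under 0.05. Over all 9628 genes tested in immune cells, 1625 did. In homeostatic microglia 0 of 23 and in macrophages 0 of 16 were called (1 and 2 at an unadjusted p under 0.05). Over all genes, 0.343% of 6702 and 0% of 1518 were called there, and 483 and 103 had an unadjusted p under 0.05. In astrocytes 2 of 18 were higher and 1 lower, beside 4.92% and 3.15% of all genes: the transcription factor Nfatc2 (1.40), the PI3-kinase adaptor Pik3ap1 (1.48) and the kinase Prkcd (-0.33). Nfatc2 was low there, at 9.81 ± 2.71 CPM in LPA and 3.84 ± 1.55 CPM in vehicle libraries. Pik3ap1 was lower still, at 3.90 ± 0.843 against 1.31 ± 1.22 CPM. The immune markers given above for astrocytes belong beside these 2 genes, and their part was not tested. The call for Nfatc2 was lost without doublets (0.60, adjusted p = 0.18), that for Pik3ap1 held in 8 of 13 alternatives, with 2.39 without the third vehicle library, and that for Prkcd held in 10 of 16.

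Of 55 genes for the clearance of apoptotic cells, 54 were found and 42 were tested in immune cells, of which 4 were higher and 4 lower, beside the 3.7% and 2.32% of all genes, and 18 had an unadjusted p under 0.05. Over all 9628 genes tested in immune cells, 1625 had one. The 4 higher were Abca1, a lipid exporter induced when phagocytes take up cholesterol (1005, 951 and 1149 CPM against 574, 432 and 461 CPM; log2 fold change 1.10 ± 0.12 SE, adjusted p = 3.7e-07), the lipid sensor Pparg (3.36 ± 0.49 SE, from 124 and 4 UMIs, with 2.55 without the second and 3.98 without the first vehicle library), the scavenger receptor Stab1 (0.54 ± 0.11 SE) and Rxra, the partner of Pparg (1.06 ± 0.32 SE, adjusted p = 0.042), whose call held in 5 of 14 alternatives. The 4 lower were the complement genes C1qa (302, 296 and 270 CPM against 621, 606 and 397 CPM; -0.93 ± 0.13 SE), C1qc (-0.71 ± 0.12 SE) and C1qb (-0.52 ± 0.14 SE) and the complement receptor subunit Itgam (-0.44 ± 0.13 SE). Of these, C1qb (adjusted p = 0.020) and Itgam (adjusted p = 0.034) were lost without the second vehicle library (-0.22, adjusted p = 0.63, and -0.21, adjusted p = 0.61) and held in 8 and 6 of 14 alternatives, and C1qa and C1qb were also among the 20 markers that named immune cells. Without activated microglia and the Cd83 and Ctsl sub-cluster, Abca1 (0.53, adjusted p = 0.086), C1qa (-0.53, adjusted p = 0.12) and C1qc (-0.44, adjusted p = 0.20) were no longer called, nor were Rxra, C1qb and Itgam, Stab1 was at -0.27 (adjusted p = 0.62), and Vav3 in immune cells kept its call (-0.92, adjusted p = 0.0088). The list's median was -0.10 beside -0.021 for all genes. In homeostatic microglia, 1 of 34 was higher, again Abca1 (643, 578 and 648 CPM against 446, 391 and 384 CPM; 0.60 ± 0.14 SE, adjusted p = 0.017), a call that held in 9 of 14 alternatives, and 0 of 15 were called in macrophages (3 at an unadjusted p under 0.05). Over all genes, 0.0746% were higher in homeostatic microglia and 0% were called in macrophages, where 103 of 1518 had an unadjusted p under 0.05.

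In astrocytes, 41 genes of the clearance list were tested, with 3 higher and 3 lower, beside 4.92% and 3.15% of all genes, and 12 had an unadjusted p under 0.05. Over all 14604 genes tested in astrocytes, 3057 had one. Mfge8, a bridging molecule for phosphatidylserine that astrocytes secrete, was at 117, 131 and 140 CPM against 227, 189 and 174 CPM (log2 fold change -0.58 ± 0.087 SE, adjusted p = 0.00029), and Itgav, a subunit of its receptors, at 182, 183 and 176 CPM against 239, 216 and 236 CPM (-0.34 ± 0.062 SE, adjusted p = 0.0020). Also lower was Calr, which codes for the calcium-binding protein calreticulin (-0.27, adjusted p = 0.044). Stab1 (1.84), Dock2 (1.45, called in 10 of 13 alternatives) and Atp11a, a lipid flippase (0.27), were higher. Stab1 and Dock2 stood at 6.26 ± 1.82 and 3.74 ± 0.800 CPM in LPA astrocytes and are known as genes of macrophages and other blood cells, and the immune markers given above for these astrocytes belong beside them.

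By their profile over the 10 cell types, a few genes outside the set were most like each member, among 15252 genes with enough UMIs. The likeness is Pearson's r of the mean log2(CPM + 1) over the 10 types, a description over points that come from the same 6 libraries. Trem2 was closest to Bin2 (r = 0.998), Nlrp1b (0.997) and Abcc3 (0.995), all highest in immune cells. Mertk was closest to Cst3 (0.984), Gna13 (0.968) and Zfp592 (0.934), Axl to Oaf (0.957), Tspan31 (0.937) and Tmem106b (0.931), and Tyro3 to Fcor (0.956), Map7 (0.955) and Usp20 (0.952). For the ligands the likeness was weaker: Gas6 was closest to Rgl2 (0.944), Whrn (0.934) and Npnt (0.929), and Pros1 to Ino80e (0.938), Uchl5 (0.936) and AU020206 (0.935).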

How the data were processed

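Nuclei of 6 mouse brain libraries (3 LPA, 3 vehicle) were profiled with 10x Genomics 3′ chemistry, version 3. According to the submitters' processing notes and the methods, the authors counted reads with Cell Ranger 4.0.0 on an mm10 pre-mRNA reference, introns included, and deposited filtered matrices of raw UMI counts, not normalized. A nucleus needed 300 genes or more, a mitochondrial share of its UMIs of 1% or less and UMIs no more than 1.5 interquartile ranges above the upper quartile of its library, which kept 87.7% to 91.9% of nuclei. The nuclei were clustered with Scanpy 1.11.5 (3000 variable genes, 40 components, Leiden resolution 1) and named from fixed markers. Of 38 clusters, 30 were named, and immune nuclei were clustered again, leaving out 10 sub-clusters that held markers of another cell type. Names were rebuilt here and may differ from those of the study. UMIs were summed per library and type, for types with at least 10 nuclei in every library, and tested with edgeR 4.0.16 (R 4.3.3; TMM, filterByExpr, quasi-likelihood test, Benjamini-Hochberg adjustment over all genes tested). DESeq2 1.42.0, no filter on low counts, each library left out, the replicate number as a block, the sex of the library, no mitochondrial limit, removal of doublets (Scrublet marked 12.3% to 15.4% of nuclei, which stayed in the main sums) and Leiden resolution 2 were alternatives.

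The genes and the 2 lists were chosen with earlier results of these data known. Named genes are the 10 of the set, the called genes of each list (up to 8 per list in each of 4 immune or astrocyte groups) and the 3 genes most like each of 6 members. Rxra and Calr would fall outside a limit of 8 over both lists together and were kept after their values were seen. In simulated data, 56.5% of genes changed by 1 on the log2 scale were recovered in immune cells (9728 genes), 60% in homeostatic microglia (6714), 52.5% in macrophages (1610) and 84% in astrocytes (14583), and 23% of such differences between immune cells and astrocytes (14345). Replicates differed beyond sampling noise (chi-square per degree of freedom 13.3 to 26.8). Intervals cover counting error only.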

Additional observations from a re-analysis of the deposited data

Results flagged for a closer look

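The LPA effect differed between immune cells and astrocytes for 3 genes of the set, by edgeR's test of the interaction. For Mertk the difference was 0.71 on the log2 scale, with log2 fold changes of 0.19 in immune cells and -0.45 in astrocytes. For Axl it was 1.64, with 1.42 and -0.21, and for Gas6 1.42, with 1.16 and -0.24. The fold changes come from a fit within each cell type and the differences from a joint fit, so they do not subtract exactly. With 3 libraries in a group, no test for an outlying value was run; the results with each library left out are given with the values they touch.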

How the results depend on the processing

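Most results kept their direction and their side of the threshold: of 194 counts of called genes, 158 stayed within 1.5 times the reported count, and of 797 values of single genes, 658 kept both, 99 were no longer called, 27 became called and 13 changed sign. Counts of 0 that stayed 0 are among the 158, and genes called in neither fit are among the 658. These shares thus say little about the genes that were called, whose counts follow. Over all nuclei 3 genes were called, with 5 under the replicate block, which added Trem2 (1.25, adjusted p = 0.033) and Tyrobp (1.19, adjusted p = 0.038), and 2 to 5 when a library was left out. In immune cells (3 called) the count was 5 with no filter on low counts, 3 to 4 with a library left out and 0 without activated microglia and the Cd83 and Ctsl sub-cluster. In the last of these, Itgax and Lgals3 had too few UMIs to be tested. In astrocytes (2 called) it was 1 with DESeq2, 1 under the replicate block, 1 with sex as a covariate, 1 in each cluster alone and 1 to 3 with a library left out. Some of the counts with a library left out hold a gene too rare for the main analysis. In oligodendrocytes (0 called) it was 1 with no filter. In ependymal cells (2 called) it was 0 with DESeq2, 1 with sex as a covariate, 1 with no mitochondrial limit, 1 without Scrublet doublets and 0 to 1 with a library left out. In homeostatic microglia (0 called) it was 1 with no filter, 1 with sex as a covariate, 1 with the Cd83 and Ctsl sub-cluster added, 1 with no mitochondrial limit, 1 without Scrublet doublets, 1 at Leiden resolution 2 and 0 to 1 with a library left out. The alternatives that regroup immune or astrocyte nuclei were chosen after seeing the data, and with no mitochondrial limit, without doublets and at resolution 2 the Cd83 and Ctsl nuclei took the name of homeostatic microglia. The number of interactions between astrocytes and oligodendrocytes (0 called) was 1 with no filter and 0 to 1 with a library left out, and that between immune cells and astrocytes (3 called) 2 to 3. Log2 fold changes that turned were Trem2 in immune cells (0.079 without the second vehicle library, with -0.28 as the other end of the range), Tyrobp, Stab1 and Itgam in immune cells without activated microglia and the Cd83 and Ctsl sub-cluster (-0.16, -0.27 and 0.048), Pros1 in homeostatic microglia without the second vehicle library (0.11, the other end -0.17), Gas6 in macrophages (0.043 with no filter, 0.069 without the third LPA library, 0.12 without the first vehicle library, the other end -0.28, and 0.12 without Scrublet doublets), Tyro3 in astrocytes and Atp11a in astrocytes with the Slc6a11 cluster alone (0.18 and -0.049), and Itgav in astrocytes and Prkcd in astrocytes with the Gfap cluster alone (0.33 and 0.36). Except where fewer nuclei or genes entered the fit, the cause was not tested.

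The labels give both groups the numbers 1 to 3, and whether these pair the libraries was not settled. Over all nuclei, deviations of same-numbered libraries correlated at 0.23, 0.54 and -0.053 for the numbers 1, 2 and 3. The range was -0.044 to 0.089 in immune cells and -0.24 to 0.29 in astrocytes. Numbers 1 and 2 joined libraries of the same sex, and number 3 did not. Depth limits the rare genes, since Itgax, Lgals3 and Axl rest on 4, 6 and 12 UMIs in vehicle immune cells.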
